A study of Mus musculus with 108 samples.

Results

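Mitochondrial ribosomal protein genes are the nuclear genes named Mrpl and Mrps, whose products are imported into mitochondria and built into the mitochondrial ribosome. They were taken here by symbol alone, as every row whose name began with Mrpl or Mrps and a number, pseudogenes left out. This gave 76 members of the 26218 gene rows, 47 named Mrpl and 29 named Mrps. By the place of the protein in the ribosome, 49 belonged to the large subunit, 26 to the small subunit and 1 to neither. Mrps18a and Mrps30 carry a small-subunit name but encode proteins of the large subunit, and Mrps36 encodes a component of the oxoglutarate dehydrogenase complex.

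The mitochondrial ribosome translates the few messenger RNAs that the mitochondrial genome encodes, all of them for subunits of the respiratory chain and ATP synthase. Its RNA is made inside the mitochondrion, while every one of its proteins is translated in the cytosol from a nuclear gene, so the set has to be supplied from many unlinked loci. In cultured spermatogonial stem cells, which divide continuously in the presence of GDNF and FGF, respiratory chain proteins and their ribosome are general housekeeping products rather than germ cell markers.

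The study profiled single mouse cells of 2 kinds, germline stem cells (GSC) and germline stem cell-like cells (GSCLC), by SC3-seq, which sequences the 3′ ends of polyadenylated RNA. All cells shared the background strain 129/SvJcl x C57BL/6 and the AcrAct_EGFP reporter, and all were grown in StemPro-34 medium with GDNF, bFGF, LIF and EGF. By their titles the cells belonged to 4 culture lines, with 30 cells of GSC1, 24 of GSC2, 30 of GSCLC1 and 24 of GSCLC4. GSC2 came from independent testes at P7, that is postnatal day 7, GSCLC4 came from reconstituted testes kept for 3 weeks at 34°C, and the origin of GSC1 and GSCLC1 is stated no further in the labels used here. One GSC1 cell, titled GSC1_MS094_146, was left out throughout, which left 29 of GSC1. Cells of a line are not replicates, so the line was the unit of comparison, with 2 lines against 2. Nothing in the labels shows that lines of a type differ by donor beyond what is given here, so p-values measure only the spread between these lines. The test used below takes that spread partly from other genes of like level.

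Depth, estimated from the value of 1 read, ran from 2.00 M to 6.05 M reads per cell, with medians of 3.72 M and 4.30 M in lines GSC1 and GSC2 and of 3.19 M and 3.27 M in lines GSCLC1 and GSCLC4. The germ cell genes Dazl and Ddx4 were present in every line, at 3285 to 3521 and 781 to 986 RPM (a read number scaled by the depth of its library). Markers of other cells were not evenly spread between the types. The summed RPM of 11 fibroblast and feeder genes had cell medians of 749 and 642 for GSC1 and GSC2 (cells from 181.4 to 5953), against 270.2 and 506 for GSCLC1 and GSCLC4 (cells from 26.1 to 1192). Some of these were as high as the members, as Lgals1 with 540.3, 341, 74.3 and 185.2 RPM and Fn1 with 105.8, 167.96, 131.4 and 191.6 RPM in GSC1, GSC2, GSCLC1 and GSCLC4, while Lum was at 0 in all 4. Of the 6 that could be tested, S100a6 passed the threshold described below and was lower in GSCLC. The sum of 8 Sertoli genes had medians of 9.64, 0.611, 25.2 and 66.8 RPM in the same order, with 0 of 3 tested past the threshold. Of the tested genes, Aard and Wt1 reached the minimum level for testing only in the GSCLC lines. Clu, also tested, was highest in GSC1, with 20.8, 3.11, 9.84 and 15.1 RPM, as was the untested Sox9, with 5.03, 0.936, 3.40 and 3.38 RPM. Wt1 had line means of 4.07, 0.550, 11.3 and 25.8 RPM, while Amh, which defines immature Sertoli cells, was at 0 in all 4. The 6 Leydig and peritubular genes summed to medians under 2 RPM but to as much as 261.6, 371, 144.02 and 74.04 RPM in single cells. Of these genes Acta2 had 27.2, 8.92, 4.15 and 1.147 RPM, Pdgfra 8.41, 44.05, 2.10 and 9.06 RPM and Star 6.71, 1.56, 9.05 and 0.788 RPM, Cyp11a1 was at 0, and 0 of 3 tested passed the threshold. Acta2 reached the minimum level for testing only in the GSC lines. The part of all these markers in the differences below was not tested. The left-out cell held 5748 detected genes and a member sum of 4833 RPM, below every other cell of its line. Its fibroblast and feeder genes summed to 44635 RPM and its Leydig and peritubular genes to 8414 RPM. The other GSC1 cells had at most 5953 and 261.6 RPM. Its 12 germ cell genes summed to 1277 RPM, where the lowest other GSC1 cell had 2873 RPM. Which kind of cell it was, was not tested.

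Of the 76 genes, 67 had at least 1 entry in the RefSeq promoter windows of GRCm38.p6, the assembly of mm10, with 73 windows in all, each running from 250 bases before to 50 after the transcript start. Promoters of nuclear genes for mitochondrial proteins are known to be rich in sites for NRF1, for ETS factors such as NRF2/GABP and for YY1, so the 3 motifs were searched on both strands. The 150 bases just before the start are printed for 1 member per motif, the one with the highest level among those that hold it in a stretch wholly before the annotated span of the gene, and for Mrps18a, which had the largest difference between the types. Capitals mark the motif match, and all 4 genes lie on the plus strand of GRCm38.p6, at chr1:37890327-37890476, chr9:105053118-105053267, chr7:78782981-78783130 and chr17:46110854-46111003.
Mrpl30: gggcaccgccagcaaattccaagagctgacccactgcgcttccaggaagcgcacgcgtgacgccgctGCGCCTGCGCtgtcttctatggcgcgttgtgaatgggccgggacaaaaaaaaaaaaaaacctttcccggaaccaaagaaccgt
Mrpl3: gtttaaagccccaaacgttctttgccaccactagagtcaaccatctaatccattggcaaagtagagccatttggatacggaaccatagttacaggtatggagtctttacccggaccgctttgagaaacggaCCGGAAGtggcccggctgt
Mrps11: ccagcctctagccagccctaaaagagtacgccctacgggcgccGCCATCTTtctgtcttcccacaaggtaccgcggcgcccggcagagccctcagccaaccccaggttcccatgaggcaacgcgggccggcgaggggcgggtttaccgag
Mrps18a: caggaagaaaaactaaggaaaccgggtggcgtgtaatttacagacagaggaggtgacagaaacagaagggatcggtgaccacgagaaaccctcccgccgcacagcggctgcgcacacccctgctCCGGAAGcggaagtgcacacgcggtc

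Mrpl30 carries the NRF1 motif, spelled GCGC, any base, TGCGC, which was found in 16.4% of the members' windows, 4.60% of all RefSeq windows and 11.2% of the windows of genes expressed highly enough to be tested here. Mrpl3 and Mrps18a carry the ETS motif CCGGAAG, present in 32.9% of member windows, 8.86% of all windows and 19.4% of those of tested genes. The YY1 motif AAGATGGC, on the minus strand in Mrps11, stood in 16.4% of member windows, 2.75% of all windows and 4.83% of those of tested genes. At least 1 of the 3 motifs was present in 41 of the 67 members. This count is per gene, so a gene with several windows had more chances, and no matching share was taken for other genes. Other promoter words differed less between members and tested genes or differed the other way, since CCAAT was found in 41.1% of member windows against 38.9% for tested genes, and the SP1 word GGGCGG in 52.1% against 65.2%. Median GC content was 58.3% for members, 61.3% for tested genes and 52.7% for all windows. These are letter matches, not measured sites, and the windows of 1 gene can overlap.

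The mitochondrial ribosomal protein genes were expressed at moderate and similar levels in all 4 lines. The mean over the 4 lines ranged from 0.503 RPM for Mrpl36 to 333 RPM for Mrps16, with a median of 80.7 RPM against 35.7 RPM for all 10519 tested genes. Most of them fell in a narrow band, 61 between 50 and 400 RPM, 15 below 50 and 8 of those below 20. Line medians were 83.1 and 74.9 RPM for GSC1 and GSC2 and 85.1 and 81.8 RPM for GSCLC1 and GSCLC4, and the 2 subunits had close medians, 80.8 RPM for the large and 79.6 RPM for the small. Reads come from the 3′ end of each transcript, so RPM was used to set genes side by side without dividing by length. The order of members was much the same in each line, with Pearson correlations of log2 level between 0.938 and 0.963 over the 76 genes, which share libraries and 3′ sequence.

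Mrps16, a small-subunit protein with a bacterial counterpart, lies at chr14:20391222-20393634 and was the highest member. Its line means were 405.7 RPM (GSC1), 321.6 (GSC2), 308.1 (GSCLC1) and 298.6 (GSCLC4). Single cells ran from 120.1 through a median of 378 to 891 RPM in GSC1, from 134 through 281 to 629 in GSC2, from 6.13 through 254 to 657 in GSCLC1 and from 11.6 through 289 to 645.5 in GSCLC4. The ranges overlapped throughout, and a few GSCLC cells lay far below the rest of their line. Next came Mrpl30, a large-subunit protein also conserved from bacteria, at 325, 337, 351 and 273 RPM in the same order of lines, and Mrpl42, found only in mitochondrial ribosomes, at 278, 283, 305 and 306 RPM. The 4 lines of Mrpl42 lay close together. Mrps14 had 223 and 215 RPM in GSC1 and GSC2, below its 265 and 292 RPM in GSCLC1 and GSCLC4, and Mrpl15 175.8, 242, 261 and 198 RPM. Mrpl3, which lines the peptidyl transferase region, was the most even of the highest 6, at 200.2, 213, 218 and 208 RPM. These 6 were the members with a mean of at least 200 RPM, followed by Mrps24, Mrpl13, Mrpl20 and Mrpl18. Nearer the middle, Mrps12, which sits at the decoding centre of the small subunit, had 81.2, 70.6, 79.4 and 120.04 RPM.

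**Figure D1:**
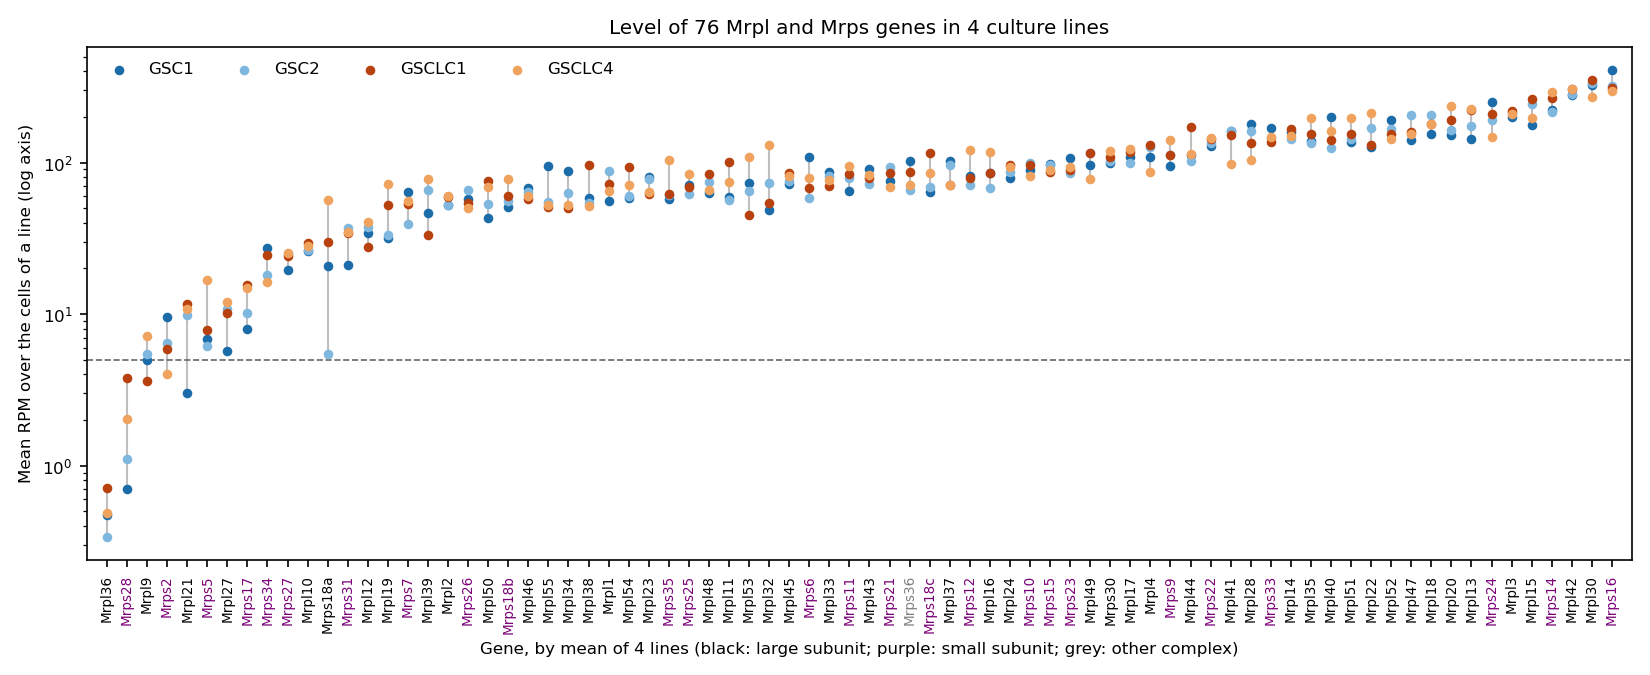
Mean RPM over the cells of each line (vertical, log axis) for the 76 genes ordered by level, with 1 point per line and a grey bar over the 4 lines; the dashed line marks 5 RPM. Most genes lie between 50 and 400 RPM with the 4 points close together. The lines separate most for Mrps18a, and widely for some genes under 20 RPM, such as Mrps28 and Mrpl21, and for Mrpl32 and Mrpl53.

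At the other end, 2 members were too low to be tested. Mrpl36, a short large-subunit protein, had 0.474, 0.338, 0.712 and 0.489 RPM in GSC1, GSC2, GSCLC1 and GSCLC4, was at 0 in 49 cells of the 4 lines, and reached at most 23 reads in a cell. Mrps28 had 0.699, 1.11, 3.81 and 2.04 RPM and was at 0 in 67 cells. Both were under 5 RPM in most cells. No cell held Mrpl36 at 5 RPM or more, while Mrps28 reached this in 9 of 30 GSCLC1 cells. The other low members were Mrpl9 (5.00, 5.42, 3.59 and 7.19 RPM), Mrpl21 (3.00, 9.86, 11.7 and 10.8 RPM), Mrps5 (6.89, 6.13, 7.86 and 16.9 RPM) and Mrps2. The Mrps2 mean in GSC1 rested on 1 cell: it was 9.50 RPM with the cell GSC1_MS094_141, at 184.9 RPM, and 3.23 RPM without it. In the other lines Mrps2 had 6.40 (4.14 without its highest cell), 5.90 and 4.02 RPM. Without the highest cell of GSC1, the GSC1 means of Mrpl9, Mrpl21 and Mrps28 were likewise lower, at 3.09, 1.68 and 0.256 RPM.

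Detection followed level. In a cell a median of 70, 71, 70 and 74 members (lines in the order GSC1, GSC2, GSCLC1, GSCLC4) had a value above 0, and after thinning each cell to 2000293 reads the medians were 68, 69.5, 69 and 72. At 5 RPM or more the medians were 58, 62, 60 and 66 of 76. GSCLC4 was highest on all 3 counts, and its cells also had the most detected genes of any kind, with a median of 9866 against 8607 to 9182 in the other lines. Of the 76 members, 19 were above 0 in every cell used, 29 reached 5 RPM in at least 90% of cells, and 9 did so in fewer than 50%.

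For part of the set the level itself is uncertain. A value is a whole number of reads for most genes, and 64 members had at most 5% of values that were not, but 10 had more than 10%: Mrpl35 (60.7%), Mrps18b (47.7%), Mrps2 (45.8%), Mrps18c (36.6%), Mrps6 (35.9%), Mrpl19 (32.3%), Mrpl22 (15.9%), Mrpl41 (14.3%), Mrps17 (12.9%) and Mrpl11 (11.5%). The treatment of reads with several map positions was not stated in the labels at hand. In addition, the last 500 bases of 6 members overlapped another protein-coding gene. Mrpl19, Mrpl24, Mrpl49, Mrps25 and Mrps7 met an antisense neighbour (Gcfc2, Rrnad1, Syvn1, Nr2c2 and Mif4gd), and Mrpl53 shared a strand with Gm42688.

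The main comparison set the 2 GSCLC lines against the 2 GSC lines. None of the 74 tested members passed the threshold between GSCLC and GSC lines, and 4 did so before adjustment. With limma on log2(mean RPM + 1) of the 4 lines and adjustment over 10519 genes, the members' adjusted p ran from 0.412 to 0.997, where 10 genes of all kinds (0.0951%) passed 0.05. At an unadjusted p under 0.05 there were 4 members (5.41%), Mrps18a, Mrpl19, Mrpl13 and Mrpl28, against 8.93% of all tested genes. The fold changes of members were small: 62 of 74 lay within 0.5 of 0 on the log2 scale, the median size was 0.20 against 0.30 for all tested genes, and 70 of the 95% intervals included 0. Among genes at 50 to 400 RPM the median sizes were closer, 0.19 for 61 members against 0.21 for all genes. The precision set a limit to this, since standard errors ran from 0.17 to 0.74 with a median of 0.27, and 52 of 74 intervals lay wholly within a 2-fold change in either direction. In simulated line values the same test missed 80.9% of 2-fold and 34.4% of 4-fold changes.

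In direction, the members leaned to the GSCLC side. The estimate was positive for 44 of 74 (59.5%, against 52.8% of all tested genes), and the median log2 fold change was 0.12 against 0.03. Both GSCLC lines lay above both GSC lines for 28 members, 37.8% against 21.4% of all tested genes, and below both for 13, 17.6% against 17.6%. Taken either way the lines did not overlap for 41 members, 55.4% against 39.1%. Lines of a type differed in spike-in total, with a median of 42079 RPM for GSC1 but 33144 for GSC2. For GSCLC1 it was 42622, and for GSCLC4 33737. Dividing RPM by the cell's spike-in sum thus rescaled lines of a type differently, besides lowering the medians of members and of all genes. The gap between these medians was 0.105 after the division and 0.090 before it. The members' median was then 0.055 against -0.050 for all genes, 42 of 74 estimates were positive, and 9.46% of members lay above and 17.6% below against 12.3% and 17.5% of all tested genes. Large-subunit genes had a median log2 fold change of 0.12 (48 tested, 30 positive) and small-subunit genes 0.14 (25 tested, 14 positive).

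**Figure D2:**
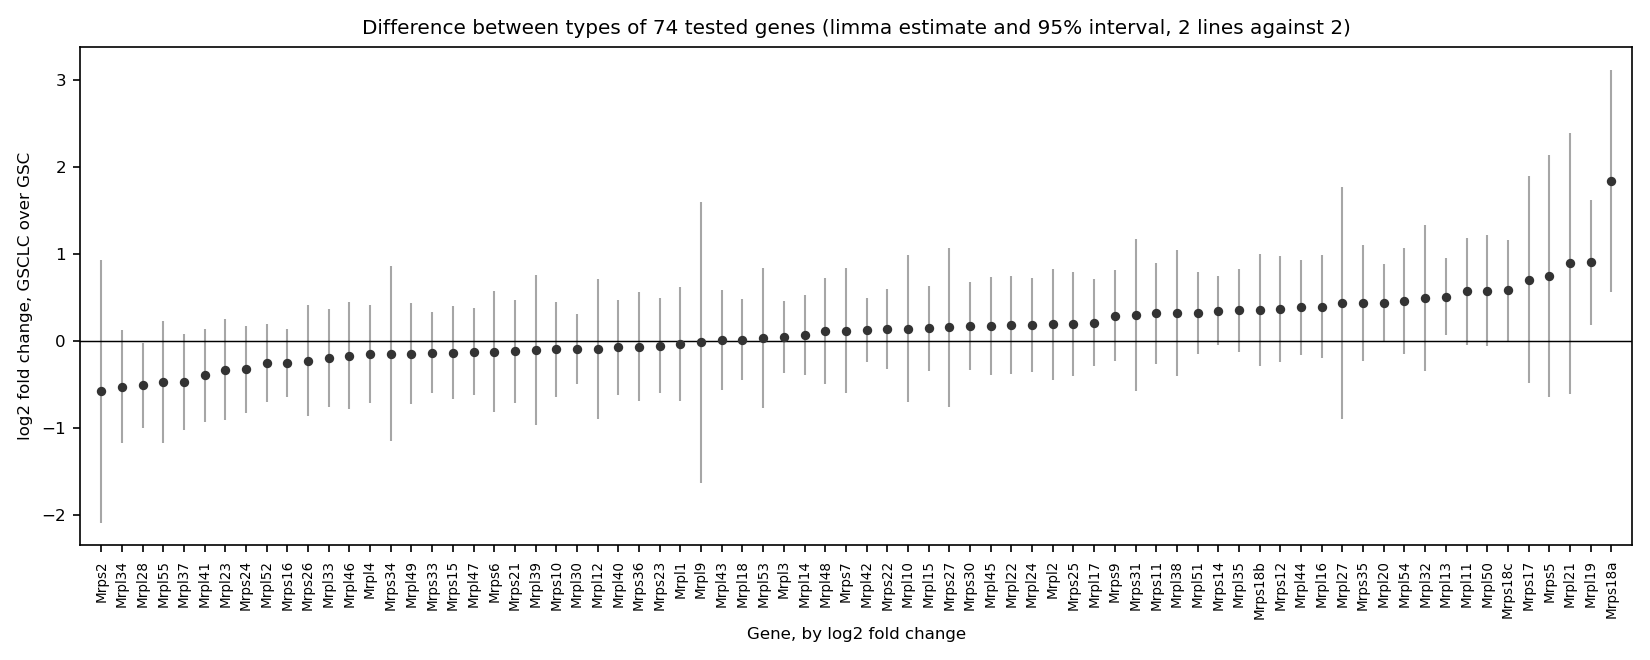
log2 fold change of GSCLC over GSC lines (vertical) with its 95% interval for the 74 tested genes, ordered by size, from limma on 2 lines against 2. 70 intervals cross 0, and Mrps18a at 1.84 stands apart with a wide interval.

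Mrps18a, one of 3 mammalian relatives of bacterial S18 and the one placed in the large subunit, had the largest difference and was the sole member with at least a 2-fold estimate (9.81% of all tested genes had one). The gene spans chr17:46111004-46128908. Its means were 20.7 RPM (GSC1), 5.43 (GSC2), 30.05 (GSCLC1) and 56.7 (GSCLC4), that is 13.1 ± 10.8 RPM over GSC against 43.4 ± 18.9 RPM over GSCLC (SD, n = 2 lines per type). Per cell, the lowest, median and highest values were 0, 0.364 and 147.2 RPM for GSC1, 0, 0 and 45.3 for GSC2, 0, 7.49 and 180.8 for GSCLC1, and 0, 42.3 and 154.7 for GSCLC4. The cell ranges overlapped fully, while the share of cells with at least 5 RPM was 31.03%, 20.8%, 50% and 70.8%, higher in both GSCLC lines. The log2 fold change was 1.84 with a standard error of 0.59 and an interval from 0.56 to 3.11, which missed the threshold in the limma fit (adjusted p = 0.412). Without GSC2 the estimate was 0.96, and without GSC1 it was 2.72. All of its values were whole reads.

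The related genes gave smaller differences. Mrps18c, the relative that takes the place of bacterial S18 in the small subunit, had 63.6 and 69.2 RPM in GSC1 and GSC2 against 115.2 and 85.9 RPM in GSCLC1 and GSCLC4 (log2 0.58, limma adjusted p = 0.565). Mrps18b, the third relative, had 50.7, 55.9, 59.9 and 77.6 RPM (log2 0.35). In all 3 the GSCLC lines lay above the GSC lines in RPM, as they did for 37.8% of members and 21.4% of all tested genes. The exception was Mrps18b after scaling to the spike-ins, where its lines overlapped. Of the values of Mrps18c and Mrps18b, 36.6% and 47.7% were not whole reads.

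Among the other members with a larger estimate, Mrpl19 (chr6:81957826-81965949) had 31.7 and 33.4 RPM in GSC1 and GSC2 against 52.7 and 71.96 RPM in GSCLC1 and GSCLC4 (log2 0.90, limma adjusted p = 0.479). In single cells it reached at least 5 RPM in 65.5%, 79.2%, 70% and 100% of cells, and GSCLC4 was the one line without a cell at 0. Mrpl21, Mrps5 and Mrps17, all with bacterial counterparts and all under 20 RPM in each line, had log2 estimates of 0.89, 0.75 and 0.70. Mrpl13, a conserved large-subunit protein at a higher level, had line means of 141.9 and 173.2 RPM for GSC1 and GSC2, against 221 and 226 RPM for GSCLC1 and GSCLC4, with every value a whole read and a log2 fold change of 0.51 (limma adjusted p = 0.506).

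Lower estimates were smaller in size. Mrps2, with -0.58, rested on the single GSC1 cell described above and turned to 0.35 when only the GSC1 cells numbered under 129, which leave that cell out, were used. Mrpl34 had -0.53, Mrpl55 -0.48 and Mrpl37 -0.47. Mrpl28, a conserved large-subunit protein at chr17:26123503-26126613, had 178.2 and 161.5 RPM in GSC1 and GSC2 against 134.8 and 104.2 RPM in GSCLC1 and GSCLC4 (log2 -0.51, limma adjusted p = 0.537). Its cell medians were 142.9, 162.6, 109.5 and 104.7 RPM, so both GSCLC lines stayed below both GSC lines, but the cell ranges, from 1.97 to 489 RPM over all lines, overlapped. Mrpl41, at -0.40, had 161.3, 160.4, 152.1 and 97.4 RPM, and GSCLC4 was the line that stood apart.

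By median size, lines of the same type differed about as much as the types did, but the 2 measures are unlike. Here 1 line was set against 1, while each type value was a mean of 2 lines, which varies less. Close medians thus do not show that the types differ no more than lines do. Between GSC2 and GSC1 the median size of the log2 difference over members was 0.19, against 0.36 for all tested genes, and between GSCLC4 and GSCLC1 it was 0.22 against 0.38. A difference of at least 2-fold was seen for 2 of 74 members between the GSC lines (13.9% of all tested genes) and for 4 between the GSCLC lines (14.6%). Part of that gap went with level: among genes at 50 to 400 RPM the shares of all genes were 1.69% and 2.99%, and 0 and 3 of the 61 members in the band passed 2-fold. Between the types, 0 of these 61 reached 2-fold, but the share of all genes in the band was not taken for this comparison. With 1 line on each side no test was made.

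In the GSC lines the 5 largest differences were those of Mrps18a (lower in GSC2 by 1.76 on the log2 scale), Mrpl21, Mrps6, Mrpl27 and Mrps31. Mrps6, a small-subunit protein, had 108.9 RPM in GSC1 and 58.5 in GSC2, whereas Mrps31, specific to mitochondria, had 20.996 and 37.2. In the GSCLC lines GSCLC4 was the higher for all 5. Mrpl53 had 45.3 RPM in GSCLC1 and 109.2 in GSCLC4 (log2 1.25), Mrpl32 54.4 and 130 (1.25), Mrpl39 33.4 and 78.0 (1.20), Mrps5 7.86 and 16.9 (1.01) and Mrps18a 30.0 and 56.7 (0.89). Mrpl32 is the ribosomal protein whose maturation by the m-AAA protease of the inner membrane is well known. Its GSCLC1 mean included 1 cell at 572 RPM, GSCLC1_MS094_164, and was 36.6 RPM without it.

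Next, the spread over cells was set against level, as the coefficient of variation (CV, SD over mean). For members with a mean of at least 5 RPM the median CV was 0.887 and 0.834 for GSC1 and GSC2 and 0.870 and 0.738 for GSCLC1 and GSCLC4, against 1.31, 1.21, 1.29 and 1.08 for all genes at that minimum. CV fell with level over all genes, so the same was taken at a matched level. Between 50 and 400 RPM the member medians were 0.818, 0.791, 0.826 and 0.720, close to 0.881, 0.812, 0.862 and 0.727 for all genes in the band. Spike-in RNAs, which are synthetic molecules from outside the cell, had 0.816, 0.769, 0.812 and 0.543 over 11 to 14 molecules in the same band. In GSC1, GSC2 and GSCLC1 the member median thus lay close to that of spike-ins of like level, and in GSCLC4 it was higher. Members lay below the running median of CV on level in 43 of 73, 49 of 74, 41 of 73 and 44 of 73 cases, or 56.2% to 66.2% per line, where all genes had about 50%.

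**Figure D3:**
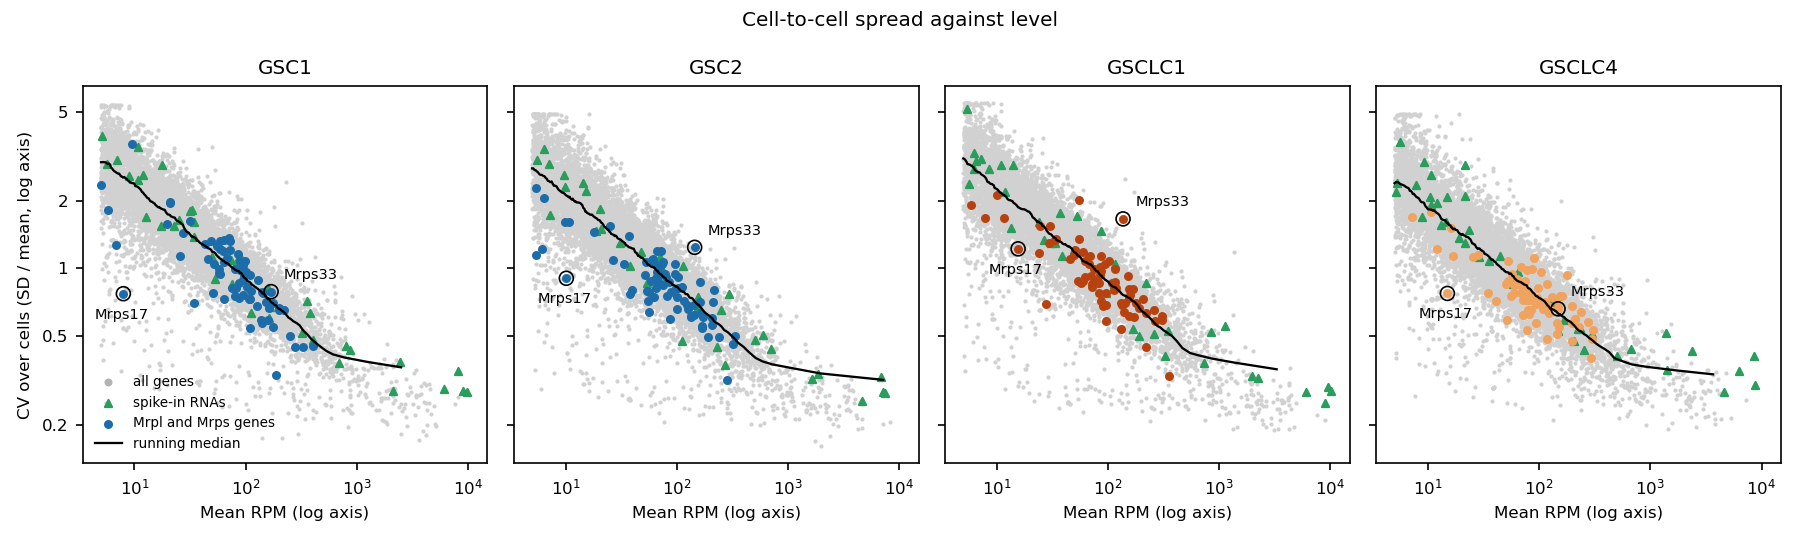
CV over cells against mean RPM (both log axes) in each line, with all genes in grey, spike-in RNAs as triangles, the members in colour and the running median of all genes as a line. Members follow the line closely, with Mrps33 above it in GSC2 and GSCLC1 and Mrps17 below it in every line.

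Mrps33, a small-subunit protein found only in mitochondrial ribosomes, lay furthest above the trend. Its CV was 0.787 (GSC1), 1.24 (GSC2), 1.66 (GSCLC1) and 0.660 (GSCLC4), where genes of its level had 0.708, 0.710, 0.760 and 0.630. The line means were 169.6, 144.8, 136.7 and 147.9 RPM, and the highest cells had 464, 763, 1201 and 380 RPM. Without the highest cell of each line the means were less close, at 159.1, 117.9, 99.99 and 137.8 RPM. The excess was in GSC2 and GSCLC1 and partly in 1 cell of each: without the cells GSC2_MS094_052 and GSCLC1_MS094_177 the CVs were 1.06 and 1.09, still above the trend. Mrpl32, Mrps15, Mrps18c and Mrps30 followed. For Mrps15 the excess in GSCLC4 rested on 1 cell, with a CV of 1.12 with it and 0.718 without it, and in GSC1 the CV went from 0.939 to 0.763. In GSC2 and GSCLC1 it stayed above the trend without the highest cell, at 0.992 and 0.956.

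Mrps17 was the most even member for its level, with CVs of 0.771, 0.904, 1.22 and 0.773 at 7.95, 10.2, 15.6 and 15.0 RPM, where the trend gave 2.54, 2.12, 1.87 and 1.59. It was at 0 in 6 cells of the 4 lines. Mrpl12, which forms the stalk that contacts translation factors, came next, with CVs of 0.697 to 0.769 at 27.9 to 40.6 RPM against a trend of 1.06 in GSCLC4 and more in the other lines. Mrps5, Mrps18b and Mrpl38 completed the 5 lowest. Mrps17 and Mrps18b were among the members with many values that were not whole reads, at 12.9% and 47.7%, whereas all values of Mrpl12 and Mrps5 were whole.

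**Figure D4:**
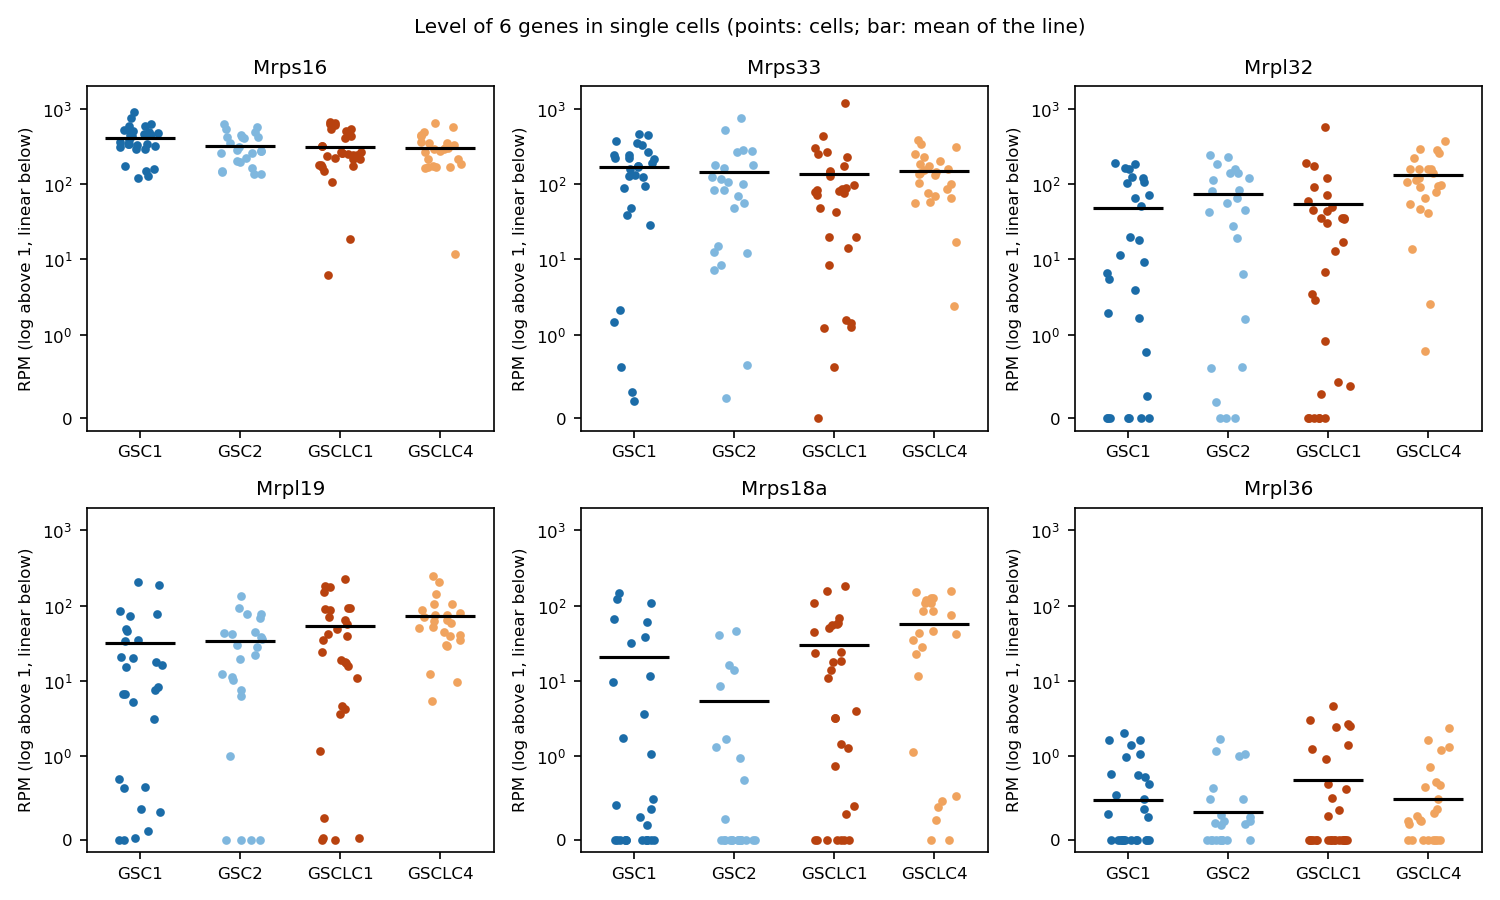
RPM in each cell (points; log above 1 and linear below) and line mean (bars) of 6 genes in the 4 lines. Mrps16 is high in nearly all cells, Mrps33 and Mrpl32 have single high cells, Mrps18a is at or near 0 in many cells of each line and Mrpl36 never passes 5 RPM.

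The levels of all 76 genes were also summed in each cell. The sum ran from 5305 through a median of 7439 to 8951 RPM in GSC1, from 5442 through 6971 to 9307 in GSC2, from 5781 through 7462 to 10672 in GSCLC1 and from 6359 through 7656 to 9681 in GSCLC4. Line ranges overlapped almost fully, and the CV of the sum was 0.124 to 0.138, which is bound to be lower than that of single genes because their variation averages out. Line means averaged 7341 ± 47.8 RPM for GSC and 7718 ± 53.2 RPM for GSCLC (SD, n = 2 lines per type), a log2 ratio of 0.072 that became -0.014 after scaling to the spike-ins. The GSC1 cells with serial numbers below 129 had a median of 7311 RPM (13 cells), and those numbered from 129 had 7495 RPM (16 cells).

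Large-subunit genes summed to line medians of 4832, 4977, 5121 and 5238 RPM and small-subunit genes to 2461, 2080, 2276 and 2336 RPM in GSC1, GSC2, GSCLC1 and GSCLC4. The large sum was 2.14, 2.36, 2.29 and 2.201 times the small one in the median cell, with cells from 0.962 to 4.07. The distance of a cell from its line's median was counted in median absolute deviations, scaled up to equal the SD of normally distributed values. Just 4 cells in the 4 lines lay more than 3 of these scaled units away, all of them high. They were GSC2 cells 52 (8857 RPM), 59 (9307 RPM) and 61 (8708 RPM) and the cell GSCLC1_MS094_183 (10672 RPM). The last had a spike-in total of 63445 RPM, above its line's median of 42622, and cell 52 was the one with the highest small-subunit sum of GSC2, 3798 RPM.

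**Figure D5:**
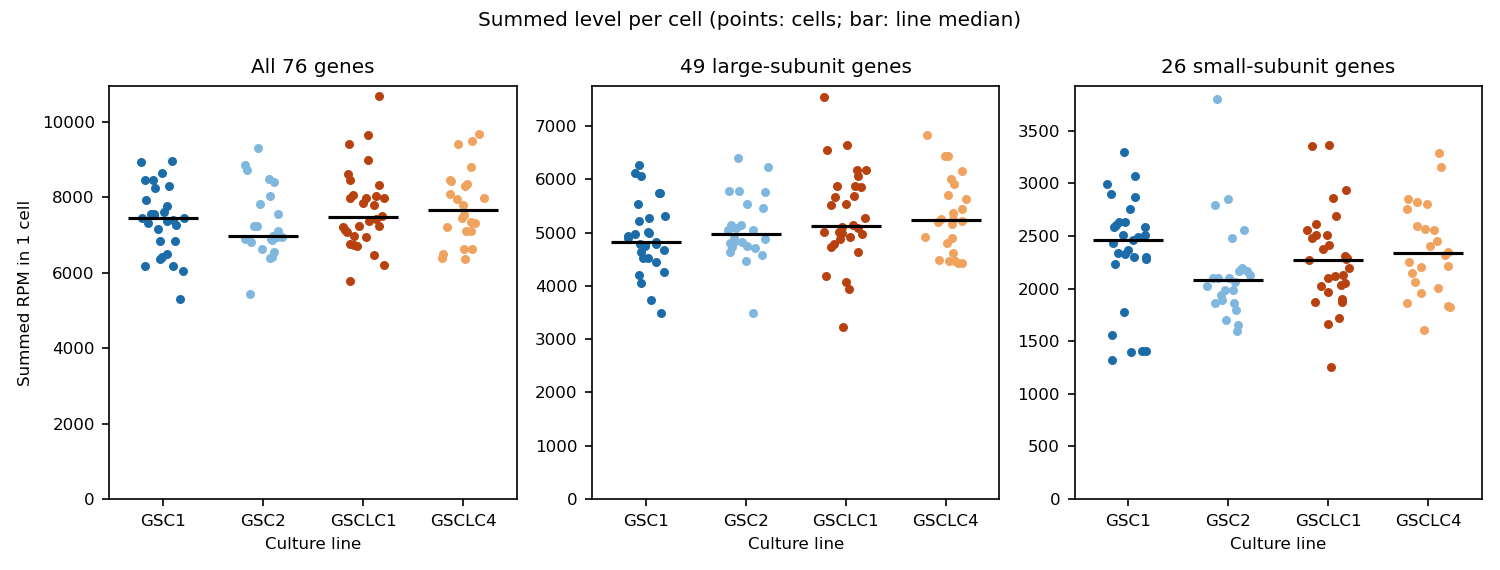
Summed RPM per cell (points) with the line median (bars) for all 76 genes, the 49 large-subunit genes and the 26 small-subunit genes in the 4 lines, on axes that start at 0. The line medians of the full sum lie between 6971 and 7656 RPM, and 1 GSCLC1 cell is the highest at 10672 RPM.

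From cell to cell the members hardly moved together. Over all pairs of members the median Spearman correlation was 0.02, 0.02, 0.03 and 0.02 (GSC1, GSC2, GSCLC1, GSCLC4), over 24 to 30 cells per line, against 0.01, 0.01, 0.01 and 0.02 for all tested genes at 5 RPM or more. Genes of the cytosolic ribosome, measured in the same cells, had 0.22, 0.29, 0.19 and 0.33, at median levels of 1808 to 2023 RPM per gene. Level could not be matched well, because only 5 to 8 cytosolic ribosomal genes lay between 50 and 400 RPM, but these had 0.16, 0.06, 0.11 and 0.28. Points within a line share library preparation and the scaling to a fixed total, and low counts weaken any correlation. The variance of the summed members was 1.54, 1.67, 1.74 and 1.97 times the sum of their single variances, where 1 is the value for independent genes. The same ratio was 16.9, 24.0, 15.4 and 28.3 for 81 cytosolic ribosomal protein genes and 2.96, 2.85, 5.02 and 8.13 for 90 nuclear genes of the respiratory chain, which had median levels of 174.6 to 182.5 RPM.

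The sums of the 2 subunits were also loosely related over cells, with Pearson's r of 0.12, 0.30, 0.09 and 0.39. The member sum against that of the nuclear respiratory chain genes gave 0.30, 0.33, 0.26 and 0.24, and against depth -0.11, 0.22, 0.02 and -0.03. These are descriptions of weakly related sparse values and were not tested.

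The wider machinery of mitochondrial translation did not pass the test in either direction. Mitochondrial ribosomal proteins with other names had 0 of 7 tested genes called and a median log2 fold change of 0.07, with Ptcd3, a pentatricopeptide protein of the small subunit, at 0.52 and Aurkaip1 at -0.35. Translation factors had 0 of 15 called and a median of -0.02. Gfm1, the elongation factor that moves the ribosome along the message, had 2.64, 3.17, 12.8 and 9.93 RPM in GSC1, GSC2, GSCLC1 and GSCLC4, and it entered the test only through the 2 GSCLC lines, so no fold change is given. Mtif2, the initiation factor that brings the first tRNA, had 21.8 and 31.2 against 10.3 and 13.1 RPM (log2 -1.10, limma adjusted p = 0.537). For Mtif2 the lines of the 2 types did not overlap, at levels under 35 RPM.

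Genes for assembly of the mitochondrial ribosome and modification of its RNA had 0 of 24 called and a median of 0.07, with Gtpbp5, a GTPase of large-subunit assembly, at 1.41 (5.68 and 3.82 against 14.7 and 13.5 RPM), the RNA-modifying factor Rpusd3 at 1.13, Tfb1m, the dimethyltransferase of the small-subunit RNA, at 1.01 and the methyltransferase Trmt61b at -0.89. Mitochondrial aminoacyl-tRNA synthetases had 0 of 18 called and a median of 0.08, with Lars2 and Hars2, which charge leucine and histidine tRNAs, both at 1.22. Of the amidotransferase that makes glutaminyl-tRNA, Gatc was at -1.52 (14.4 and 9.61 against 1.15 and 8.18 RPM), and Pet112l had 4.04, 2.56, 9.90 and 12.5 RPM and likewise entered only through the GSCLC lines. Genes for mitochondrial DNA and its transcription had 0 of 16 called and a median of 0.06, with Polg2 at 0.84, Myc at 0.67 and Gabpb1 at -0.64. Unadjusted p-values under 0.05 numbered 0, 2, 1, 3 and 0 in these 5 lists, where 8.93% of all tested genes had one. The counts for translation factors and synthetases include Gfm1 and Pet112l. Both entered the test only through the GSCLC lines, where they were higher, so these counts rest partly on the filter. For comparison, 16 of 80 tested cytosolic ribosomal protein genes had a positive estimate (median -0.08) and 42 of 85 respiratory chain genes (median -0.01), with 0 called in each and 5 and 4 of them at an unadjusted p under 0.05. Over all tested genes 52.8% of estimates were positive.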

How the data were processed

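The authors deposited 1 table of expression signal in RPM for 26218 genes and 92 spike-in RNAs in the single cells, and the build mm10 with TopHat 1.4.1, Cufflinks 2.2.0 and cutadapt 1.3 is listed per the submitters' processing notes. In this signal the gene rows summed to nearly the same total in each cell and the spike-ins came on top, so they stayed out of every gene test. Whole reads, within 0.05 read, made up 85.6% to 92.4% of the values above 0 in a cell, so no count model was fitted. The design had assumed RPM, and the test was the same. The value of a line was the mean RPM over its cells. Genes with at least 5 RPM in 2 of the 4 lines were tested with limma 3.58.1 in R 4.3.3 on log2(mean RPM + 1), with a mean-variance trend and Benjamini-Hochberg adjustment over the 10519 tested genes at 0.05. On this log2 scale the change of a gene with low RPM is understated. A detected gene had a value above 0.

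The fit was checked on simulated line values for 10519 genes in 20 draws with 200 genes changed, where 80.9% of 2-fold, 34.4% of 4-fold and 10.2% of 16-fold changes were missed and 4.86% of calls were false. Positions are those of RefSeq GRCm38.p6. The members, the lists and the tests were chosen with earlier results of these data known. Genes were named by rank in level, fold change, CV against the running median, and difference within a type, with the Mrps18 genes, Mrpl12 and Mrps12 and up to 4 genes by size per other list. The alternatives covered the left-out cell, pseudocount, filter, summary over cells, scaling, variance model, GSC1 cells split by serial number and left-out lines. Leaving out the highest cell was added after the data were seen.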

Additional observations from a re-analysis of the deposited data

How the results depend on the processing

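No member was called by limma under any of the 16 alternatives, in which the smallest adjusted p of a member was 0.254 and 0 to 39 genes of all kinds passed. The median log2 fold change of members, 0.12 in the report, was 0.25 from the mean of log2(RPM + 1) over cells, which moved the median of all tested genes to 0.15, and 0.30 from median RPM (0.08 for all genes). It was 0.086 after rescaling by median ratio and 0.055 after division by the spike-in sum, and ran from 0.10 to 0.15 when 1 line was left out. The log2 ratio of the summed members, 0.072, was 0.11 from median RPM, 0.038 after median ratio rescaling and -0.014 after spike-in scaling. The median CV, 0.832 averaged over lines, became 0.918 as median absolute deviation, scaled up in the same way, over median. Members detected per cell, 71.25 averaged over lines, became 61.5 at 5 RPM or more. Of 188 alternative values for 12 members, all but 3 kept their direction. These 3 were those of Mrps2 (-0.58), which had 0.0056 from the mean of log2 values, 0.33 from median RPM and 0.35 with GSC1 cells numbered under 129 only. Beyond the single Mrps2 cell, the cause was not tested. No paired analysis was possible because the serial numbers of cells are not shared between lines. With 2 lines per type many moderate changes would be missed. Mrpl36 and Mrps28 were under 5 RPM in most cells, and the part of depth in this was not tested.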
